A study of Mus musculus with 20 samples.

Results

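The heat shock proteins and their cochaperones form the protein folding machinery of the cell, and 77 of their genes were measured in mouse testis after exposure to benzo(a)pyrene (B[a]P). They are the genes on the array whose symbol begins with Hspa, Hspb, Hspd, Hspe, Hsph, Hsp90, Dnaja, Dnajb or Dnajc, or is Bag1 to Bag6, out of 16966 named genes in all. The rule rests on gene names alone and uses no measured value. The 77 genes had 83 probes, and for the 5 genes with several probes the brightest stood for the gene. Hspa1b had no probe under that name, and Hspa1a, its near-identical copy, may share its signal.

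Whole testes were compared in male Wt and Xpc-/- mice, both C57BL/6, of which 5 per genotype were exposed to B[a]P and 5 were not, giving 4 groups. B[a]P, a polycyclic aromatic hydrocarbon whose metabolites bind to DNA, was given as a single oral dose of 13 mg/kg bw, and the control mice received its solvent, sunflower oil. Testes were taken 4 days later. Xpc encodes the protein that recognises bulky damage in global genome nucleotide excision repair, and Xpc-/- mice lack it in every cell. Each testis sample was labelled with Cy5 and hybridized together with a Cy3-labelled pool of 3 other unexposed Wt mice. The age of the mice is not stated in the sources used here.

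HSP70 proteins bind unfolded stretches of protein and release them in a cycle driven by ATP. J proteins (Dnaja, Dnajb and Dnajc) deliver clients to HSP70 and stimulate ATP hydrolysis, whereas nucleotide exchange factors such as the BAG proteins and the HSP110 proteins (Hsph1, Hspa4, Hspa4l) reopen it. HSP90 acts later, small heat shock proteins hold unfolded proteins, and the chaperonin Hspd1 with its lid Hspe1 folds proteins inside mitochondria. Testis is known for members of its own: Hspa2 is required by spermatocytes in meiosis, Hspa1l is made in spermatids, and Dnajb3, Dnajb8, Dnajb13, Dnajc5b, Dnajc5g, Hspa4l and Hspb9 are testis-enriched. The classical heat shock response is driven by Hsf1, which binds heat shock elements in promoters and raises Hspa1a, Hspb1, Hsph1, Dnajb1 and Bag3.

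Promoters of the members were searched for the heat shock element. It was taken as 3 alternating units on either strand, GAA, TTC and GAA, with 2 bases of any kind between neighbours. Windows from 250 bases before to 50 bases after an annotated start were taken from RefSeq on GRCm38.p6 and covered 63 of the 77 genes. The element stood in a window of 4 of these 63 genes (6.35%), compared with 0.662% of all 27025 genes in the table. The stretches are shown because they mark the members whose promoter carries the full element, which stands in capitals, and each reads 5′ to 3′ on the strand of its gene. They lie at chr5:149636280-149636308 (minus strand) for Hsph1, at chr1:55088056-55088084 (plus strand) for Hspe1 and at chr5:29735844-29735872 (plus strand) for Dnajb6. Hspd1, the fourth gene, is transcribed away from Hspe1, and its window holds the same element read from the other strand. In Hsph1 the element lies just after the annotated start. A match is a description of letters and shows no binding.
Hsph1: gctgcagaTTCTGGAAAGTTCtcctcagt
Hspe1: ccgttctaGAACCTTCCGGAAggccccgc
Dnajb6: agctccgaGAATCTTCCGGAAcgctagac

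None of these 4 genes passed the test for B[a]P with all arrays: the log2 change was -0.30 for Hsph1, 0.03 for Hspd1, -0.10 for Hspe1 and -0.15 for Dnajb6. For comparison, the 120 bases before the start are shown for 2 members that rose after B[a]P, at chr4:40948295-40948414 (minus strand) for Bag1 and chr3:34081355-34081474 (minus strand) for Dnajc19. Capitals mark the GC box, GGGCGG on either strand, which stood in the 250 bases before a start in 71.4% of the 63 members and in 35.4% of all genes in the table. Dnajc5g, which also rose, had 0 boxes in those 250 bases, and Dnajc7, which fell, had 0 or 1 depending on the start. Any relation of the box to the changes was not tested.
Bag1: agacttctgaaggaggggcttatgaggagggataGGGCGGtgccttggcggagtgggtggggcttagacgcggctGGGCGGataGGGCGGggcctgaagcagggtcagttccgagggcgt
Dnajc19: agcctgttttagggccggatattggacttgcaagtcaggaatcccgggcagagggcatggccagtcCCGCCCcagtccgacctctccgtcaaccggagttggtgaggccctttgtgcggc

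Deposited values were natural logarithms of normalized signals and were converted to log2, so that a difference of 1 is a doubling. The 20 arrays had medians of 5.23 to 5.24 on the natural log scale, and within groups their correlation ranged from 0.964 to 0.994. Xpc-/- control 1 and 2 stood apart from the rest along the axis of largest variance, at 38.4 and 40.5, while the others spanned -18.7 to 8.10. Results that rest on these 2 arrays are therefore given with and without them. Xpc itself measured 7.10 to 7.64 in the 10 Wt mice and 6.26 to 6.99 in the 10 Xpc-/- mice on the log2 scale, without overlap. Whether this probe lies in the disrupted part of the gene was not determined. Germ cell markers were bright: spermatid markers stood at a median percentile of 96.4 among all probes and spermatocyte markers at 93.3, against 10.1 for epididymis and 19 for endothelium.

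The chaperone genes were bright as a group, since 48 of the 77 lay in the brightest 25% of all probes and 4 in the dimmest 25%. The spermatid J protein Dnajb3 measured 14.91 ± 0.06 (SD, n = 5) in Wt control testis on the log2 signal scale, at percentile 99.8 of the probes. Hspa4l, an HSP110 protein of germ cells, stood at percentile 99.5, and the small heat shock protein Hspb9 at 99.1. Hspa2 and Hspa1l stood at percentiles 94.5 and 94.8. Among the stress-inducible genes, Hspb1 stood at percentile 93.9 and Hspa1a at 63.6. Percentiles describe the signal of each probe and are not amounts of RNA, since probes bind with different strength. Hsp90aa1, the inducible cytosolic HSP90, ranked 1 to 21 of 20868 probes and lay within 0.62 log2 units of the brightest probe of its array in all 20 arrays, at the top of the signal range, where changes may be compressed.

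The first comparison asked which chaperone genes differed between the 10 exposed and the 10 control mice, averaged over both genotypes. The mitochondrial import chaperones Hspa9 and Dnajc19, the nucleotide exchange factor Bag1 and the testis J protein Dnajc5g rose, by 28.9% to 45.3%. The J proteins Dnajc2 and Dnajc7 and the BAG protein Bag4 fell, with changes of -19.6% to -24.4%. In limma with Benjamini-Hochberg adjustment over all 20868 probes, 7 of the 77 members passed an adjusted p of 0.05 (9.09%), beside 6.36% of all named genes. Of these, 4 rose (5.19%, background 4.02%) and 3 fell (3.90%, background 2.34%). All 7 lay in the brightest 25% of probes, where 14.6% of the members and 16.1% of all genes passed. The median log2 change of the 77 was 0.01, with 39 above 0 and 38 below, and that of all genes was -0.01. Dnajc2, Bag1 and Bag4 are also in the lists of regulated genes that the study drew from these same mice, so their choice is not independent of the data. In whole testis, fewer cells of a type and less RNA per cell cannot be told apart.

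**Figure D1:**
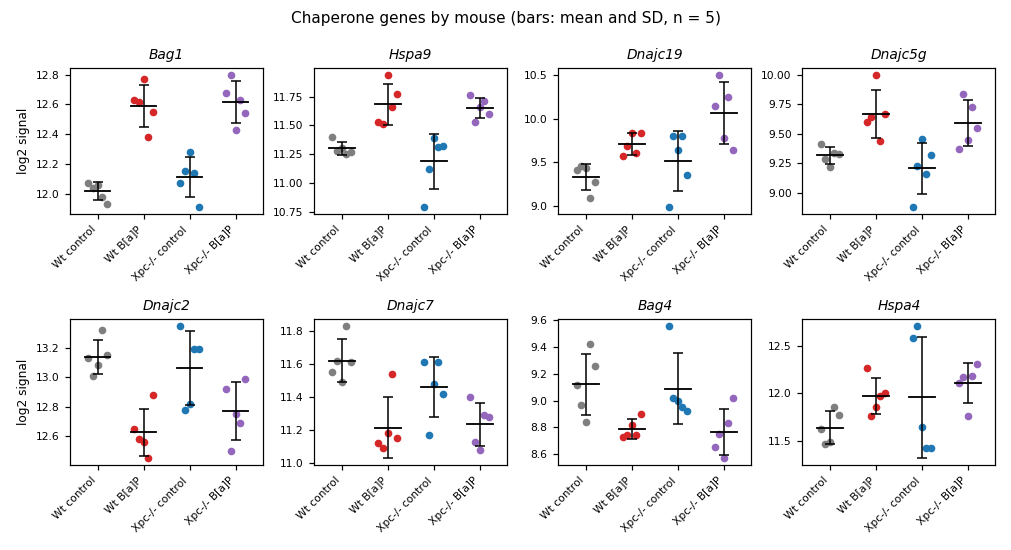
Log2 signal (y axis) of the 7 chaperone genes that passed the B[a]P main effect and of Hspa4, for each mouse in the 4 groups, where points are mice and black bars the mean and SD (n = 5). The 10 exposed mice lie above all 10 controls for Bag1 and Hspa9, and Xpc-/- control 1 and 2 lie above the other Xpc-/- controls for Hspa4.

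Bag1 opens the nucleotide pocket of HSP70 and binds the survival protein BCL2. Its log2 signal was 12.07, 12.04, 12.06, 11.98 and 11.93 in Wt controls and 12.63, 12.62, 12.77, 12.38 and 12.55 in Wt B[a]P mice. In Xpc-/- controls it was 12.07, 12.15, 12.28, 12.14 and 11.91, and in Xpc-/- B[a]P mice 12.68, 12.80, 12.43, 12.63 and 12.54. Every exposed mouse was above every control mouse. The log2 change was 0.54 ± 0.07 (SE), or 45.3% (adjusted p = 5.44e-05 in limma). It was 0.58 in Wt mice (adjusted p = 0.00581) and 0.50 in Xpc-/- mice (adjusted p = 0.0160), and Bag1 passed the test within each genotype.

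Hspa9, known as mortalin, is the HSP70 of the mitochondrial matrix and pulls proteins through the inner membrane. It measured 11.40, 11.28, 11.30, 11.25 and 11.27 in Wt controls and 11.53, 11.51, 11.94, 11.66 and 11.77 in Wt B[a]P mice. The Xpc-/- controls measured 10.79, 11.12, 11.39, 11.31 and 11.32, and the Xpc-/- B[a]P mice 11.76, 11.53, 11.66, 11.71 and 11.60. As for Bag1, no exposed mouse overlapped with a control mouse, although the lowest values were those of Xpc-/- control 1 and 2. Hspa9 rose by 0.43 ± 0.08 (SE) on the log2 scale (adjusted p = 0.00109). The rise in Xpc-/- mice was 0.47 (adjusted p = 0.0388) with all arrays and 0.32 (adjusted p = 0.109) without Xpc-/- control 1 and 2. Separation of all 10 exposed from all 10 control mice was found for these 2 members (2.60%) and for 0.495% of all named genes.

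Dnajc19, the J protein of the import motor that stimulates Hspa9 at the inner membrane, measured 9.41, 9.46, 9.43, 9.09 and 9.28 in Wt controls. Wt B[a]P mice had values of 9.57, 9.69, 9.83, 9.61 and 9.84, all above these controls. In the Xpc-/- groups the values overlapped, with 8.99, 9.80, 9.64, 9.80 and 9.36 in controls and 10.14, 10.50, 9.78, 10.25 and 9.64 in exposed mice. The log2 change was 0.46 ± 0.10 (adjusted p = 0.0073). Dnajc15, a close relative of Dnajc19 at the same membrane, measured a change of 0.32 and did not pass (adjusted p = 0.0881). Its Xpc-/- controls 1 and 2 (13.31 and 13.68) lay below the other 3 (14.31 to 14.43), and its change in Xpc-/- mice was 0.42 with them and 0.07 without them. In all, 2 of the 10 mitochondrial members rose, where 4.02% of all named genes did, and the chaperonin genes Hspd1 (0.03) and Hspe1 (-0.10) did not pass.

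Dnajc5g is a cysteine string protein of the testis, a J protein of vesicle membranes. Its signal was 9.41, 9.29, 9.22, 9.34 and 9.33 in Wt controls and 9.60, 9.64, 10, 9.44 and 9.67 in Wt B[a]P mice. Xpc-/- controls measured 8.88, 9.23, 9.46, 9.16 and 9.32, and Xpc-/- B[a]P mice 9.37, 9.84, 9.45, 9.73 and 9.55. The Wt groups did not overlap, whereas 2 exposed Xpc-/- mice lay below Xpc-/- control 3. Dnajc5g rose by 0.37 ± 0.08 (adjusted p = 0.00689). Its relative Dnajc5b, also of the testis, changed by 0.13 and did not pass (adjusted p = 0.412).

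Dnajc2, a J protein of the ribosome that assists nascent chains, fell. It measured 13.13, 13.01, 13.08, 13.32 and 13.15 in Wt controls and 12.65, 12.58, 12.56, 12.45 and 12.88 in Wt B[a]P mice. Xpc-/- controls measured 13.35, 12.78, 12.82, 13.19 and 13.19, and Xpc-/- B[a]P mice 12.92, 12.50, 12.75, 12.69 and 12.99. The groups were separate in Wt mice and overlapped in Xpc-/- mice. The log2 change was -0.40 ± 0.08 (adjusted p = 0.00368), with -0.51 in Wt (adjusted p = 0.0374) and -0.30 in Xpc-/- mice (adjusted p = 0.238).

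Dnajc7 carries tetratricopeptide repeats and works between HSP70 and HSP90. Wt controls measured 11.55, 11.62, 11.49, 11.83 and 11.61, and Wt B[a]P mice 11.12, 11.09, 11.18, 11.54 and 11.15. Xpc-/- controls measured 11.61, 11.17, 11.48, 11.61 and 11.42, and Xpc-/- B[a]P mice 11.40, 11.13, 11.08, 11.29 and 11.28. Wt B[a]P mouse 4 was the only exposed Wt mouse within the range of its controls. Dnajc7 fell by 0.32 on the log2 scale (SE 0.08, adjusted p = 0.0128).

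Bag4, which silences death domain receptors and also binds HSP70, measured 9.12, 8.97, 8.84, 9.42 and 9.26 in Wt controls and 8.73, 8.74, 8.82, 8.74 and 8.90 in Wt B[a]P mice. It measured 9.56, 9.02, 9.0, 8.95 and 8.92 in Xpc-/- controls and 8.65, 8.75, 8.57, 8.83 and 9.02 in Xpc-/- B[a]P mice. The groups overlapped in both genotypes. Its log2 change was -0.33 ± 0.09 (adjusted p = 0.0207), and it was -0.29 (adjusted p = 0.0559) without Wt control 4.

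**Figure D2:**
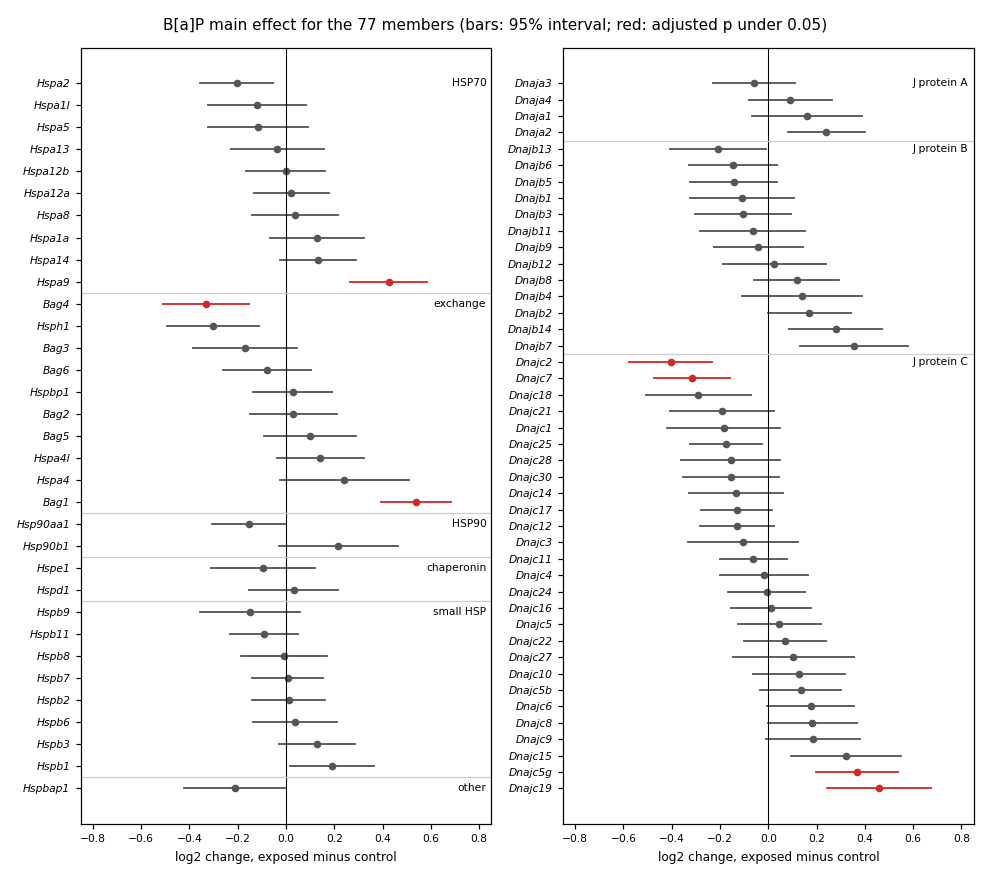
Log2 change between exposed and control mice (x axis, B[a]P main effect of limma) for the 77 chaperone genes, grouped by role, with 95% intervals. Red marks the 4 genes that rose and the 3 that fell at an adjusted p below 0.05, and the changes of the other genes run from -0.30 for Hsph1 to 0.36 for Dnajb7.

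The family groups showed no common direction. Of the 10 HSP70 genes 1 rose, of the 10 HSP110 and exchange factor genes 1 rose and 1 fell, and of the 27 Dnajc genes 2 rose and 2 fell. Among all named genes 4.02% rose and 2.34% fell. With all arrays, none of the 13 Dnajb, 4 Dnaja, 2 HSP90 and 2 chaperonin genes passed at an adjusted p of 0.05 in limma. None of the 8 genes placed by symbol among the small heat shock proteins passed either. Even so, 19 of the 77 members had an unadjusted p below 0.05 (24.7%, background 19.9%). The ordinary analysis of variance also called 7 members (9.09%, background 5.23%). Among the 13 members of the endoplasmic reticulum none passed with all arrays. Hspa5, also called BiP, had a change of -0.11 (adjusted p = 0.602), and Hsp90b1, or GRP94, 0.22 (adjusted p = 0.345).

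None of the stress-inducible members passed the test with all arrays. Hspa1a, the inducible cytosolic HSP70, measured 8.24, 8.14, 8.16, 7.88 and 8.21 in Wt controls, 7.98, 8.51, 8.26, 8.07 and 8.09 in Wt B[a]P mice, 7.57, 7.76, 8.22, 8.25 and 8.17 in Xpc-/- controls and 8.09, 8.0, 8.43, 8.46 and 8.01 in Xpc-/- B[a]P mice. Exposed and control mice overlapped in both genotypes, and the change of 0.13 did not pass (adjusted p = 0.519). Hspb1, a small heat shock protein, had a change of 0.19 (adjusted p = 0.210), and the J protein Dnajb1 one of -0.11 (adjusted p = 0.646). Bag3, a BAG protein of selective autophagy, had a change of -0.17 (adjusted p = 0.415), and Hsp90aa1 one of -0.15 (adjusted p = 0.266). Hsph1, an HSP110 protein, lay just outside the threshold with a change of -0.30 (adjusted p = 0.0509). Its values were 9.48, 9.59, 9.52, 9.83 and 9.64 in Wt controls, 9.51, 9.03, 9.35, 9.11 and 9.23 in Wt B[a]P mice, 10.25, 9.95, 9.37, 9.72 and 9.66 in Xpc-/- controls and 9.83, 9.31, 9.49, 9.55 and 9.61 in Xpc-/- B[a]P mice. The highest Hsph1 values were those of Xpc-/- control 1 and 2, and the groups overlapped.

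Among the germ cell members, Dnajc5g passed with all arrays and the other 9 named did not. Hspa2 measured 11.74, 11.79, 11.63, 12.01 and 11.76 in Wt controls and 11.74, 11.52, 11.55, 11.43 and 11.40 in Wt B[a]P mice. In Xpc-/- mice it measured 11.93, 11.67, 11.69, 11.82 and 11.68 in controls and 11.69, 11.50, 11.46, 11.50 and 11.88 after exposure. Of the exposed mice 7 of 10 lay below all controls of their genotype, with overlap in both genotypes, and the change of -0.20 did not pass (adjusted p = 0.107). Hspa1l measured 11.71 to 11.95 in Wt controls, 11.47 to 12.06 in Wt B[a]P mice, 11.30 to 12.12 in Xpc-/- controls and 11.34 to 11.96 in Xpc-/- B[a]P mice. These ranges overlapped in both genotypes, and the change was -0.12 (adjusted p = 0.570). Without Xpc-/- control 1 and 2 the Hspa1l change was -0.23 (adjusted p = 0.0879), with -0.37 in Xpc-/- mice (adjusted p = 0.119). Dnajb7, a J protein of the testis, came nearest to the threshold with 0.36 (adjusted p = 0.0513). Its Xpc-/- controls 1 and 2 (11.27 and 11.33) lay below the other Xpc-/- controls (11.95 to 12.18). Without them its change was 0.20 (adjusted p = 0.157), with 0.11 in Xpc-/- mice (adjusted p = 0.717). The sperm radial spoke protein Dnajb13 had a change of -0.21 (adjusted p = 0.239), Hspb9 of -0.15 (adjusted p = 0.470), Hspa4l of 0.14 (adjusted p = 0.424), Dnajb8 of 0.12 (adjusted p = 0.516) and Dnajb3 of -0.10 (adjusted p = 0.630).

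**Figure D3:**
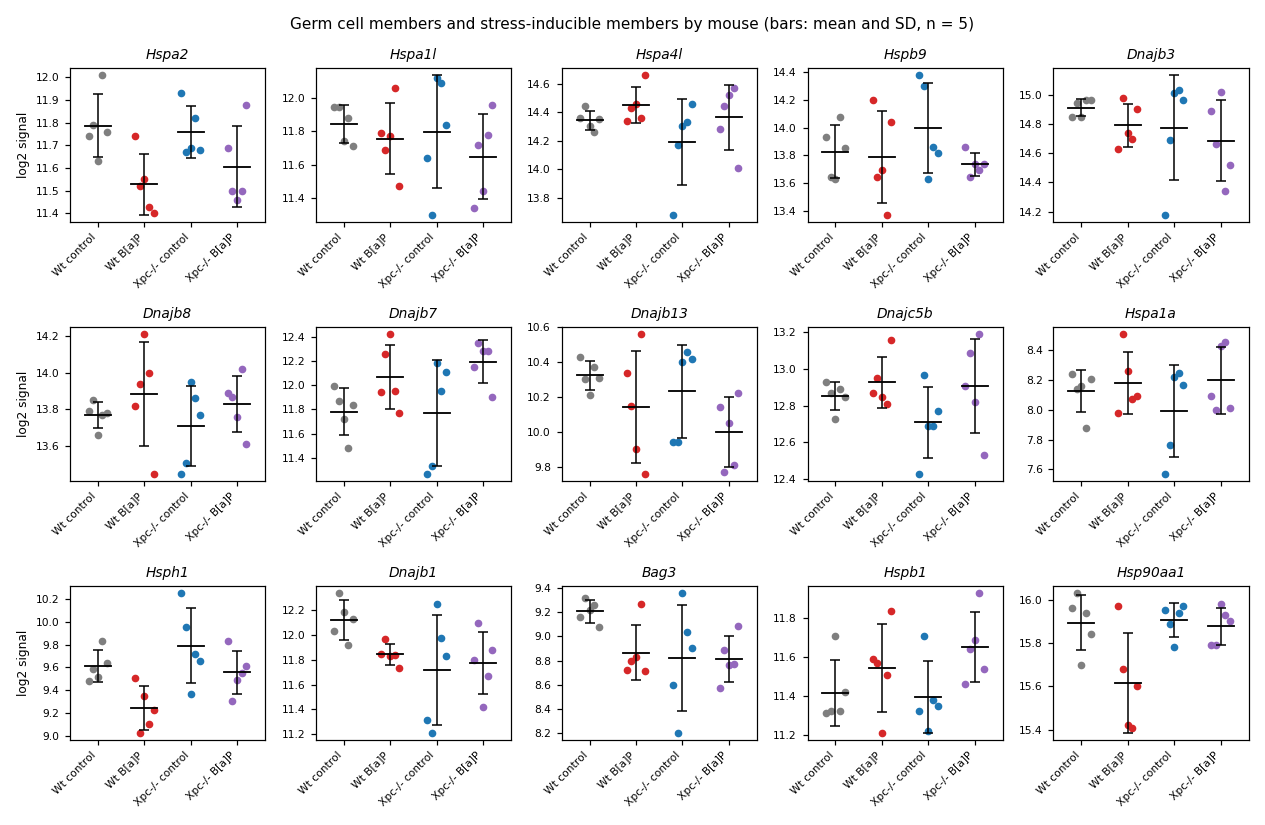
Log2 signal (y axis) of 9 germ cell members and 6 stress-inducible members for each mouse in the 4 groups, where points are mice and black bars the mean and SD (n = 5). Exposed and control mice overlap for Hspa2, Hspa1l and Hspa1a in both genotypes, and none of the 15 genes passed the B[a]P main effect with all arrays.

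Some markers of germ cell stages and of other cells passed the test as well, where 4.02% of all named genes rose and 2.34% fell. Of 12 spermatid markers 2 fell, Tssk2 (-0.26, adjusted p = 0.0401) and Crem (-0.31, adjusted p = 0.0463), with 2 changes above 0 and 10 below. Of 10 spermatocyte markers 2 rose, Sycp2 (0.38, adjusted p = 0.0137) and Sycp3 (0.40, adjusted p = 0.00409), with 7 changes above 0 and 3 below. In the brightest 25% of probes lay 10 spermatid and 9 spermatocyte markers, and 16.1% of all genes there passed. The average over the spermatid list, relative to Wt controls, ranged from -0.10 to 0.12 in Wt controls, -0.20 to -0.02 in Wt B[a]P mice, -0.04 to 0.12 in Xpc-/- controls and -0.17 to 0.01 in Xpc-/- B[a]P mice. On this list Prm1, Prm2 and Tnp1 (means 15.93, 15.93 and 15.64) lay near the top of the signal range. Each changed by -0.20 in Wt mice. The lowest average was that of Wt B[a]P 4, whose brightest probe measured 15.59, compared with 15.88 or more on every other array. The part of the array top in this average was not tested. The average over 5 markers of peritubular and smooth muscle cells ranged from -0.15 to 0.02 in the controls of both genotypes and from 0.04 to 0.32 in exposed mice, and 2 of the 5 rose, Tagln (0.43, adjusted p = 5.36e-04) and Cnn1 (0.33, adjusted p = 0.0244). Of 8 macrophage markers 1 rose, C1qc (0.41, adjusted p = 0.00136), and the average of this list ranged from -0.20 to 0.25 in controls and from -0.01 to 0.28 in exposed mice. No measured marker of spermatogonia (7), Sertoli cells (10), Leydig cells (6), endothelium (5), red blood cells (2) or epididymis (4) passed the test. The part of these cell types in the changes of the chaperone genes was not tested.

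Genes that work with the chaperones but lie outside the family names were also measured. On a list of 5 genes of heat shock factors, 3 were measured: Hsf2, Hsf4 and Hsbp1. Hsf1 was not among the measured genes. Of these 3 only Hsf2, which is abundant in germ cells, passed, with a rise of 0.41 (adjusted p = 0.00362). Its values were 8.30 to 8.72 in Wt controls, 8.84 to 9.14 in Wt B[a]P mice, 8.42 to 8.92 in Xpc-/- controls and 8.62 to 9.34 in Xpc-/- B[a]P mice, with overlap in Xpc-/- mice only. Of 32 further HSP70 and HSP90 cochaperones 2 rose and none fell, with a median change of -0.06, where 4.02% of all named genes rose and 2.34% fell. The genes that rose were St13, or HIP, which slows release of clients from HSP70 (0.55, adjusted p = 1.53e-04), and Stip1, or HOP, which links HSP70 to HSP90 (0.33, adjusted p = 0.00537). Of 10 other chaperones of testis and endoplasmic reticulum, Calr, a calcium-binding chaperone of glycoproteins, fell by 0.36 (adjusted p = 0.0154).

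The second comparison took each genotype by itself, 5 exposed against 5 control mice. In Wt mice 2 members passed (2.60%, background 0.79%), Bag1 and Dnajc2. Exposed and control Wt mice did not overlap for 5 members (6.49%, background 4.6%), which were Bag1, Hspa9, Dnajc2, Dnajc19 and Dnajc5g. In Xpc-/- mice Bag1 and Hspa9 passed (2.60%, background 0.749%), and these were also the 2 members without overlap (2.60%, background 2.4%). The log2 changes in the 2 genotypes, which share no mice, had the same sign for 57 of 77 members (74.0%) and for 64.7% of all named genes.

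The interaction, which tests whether the change differed between Xpc-/- and Wt mice, passed for 0 members in limma (background 0%), with 0 members at an unadjusted p below 0.05 (background 2.99%) and 0 in the ordinary analysis of variance. For Bag1 the difference between the changes was -0.07, with a 95% interval from -0.36 to 0.22. For Dnajc2 it was 0.21, with an interval from -0.13 to 0.56, and for Dnajc19 0.17, with an interval from -0.26 to 0.59. These intervals leave room for differences as large as the changes themselves for Dnajc2 and Dnajc19.

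The third comparison set Xpc-/- against Wt mice. Over both treatments 0 members passed in limma (background 0.0236%) and 0 in the ordinary analysis of variance, with 7 at an unadjusted p below 0.05 (9.09%, background 6.81%). The 5 with the largest differences were Dnajc19 (0.27), Hsph1 (0.25), Dnajb1 (-0.24), Hspa4 (0.23) and Bag3 (-0.22), with adjusted p of 0.744 or higher. Without Xpc-/- control 1 and 2 they were 0.31 for Dnajc19, 0.14 for Hsph1, -0.09 for Dnajb1, -0.003 for Hspa4 and -0.08 for Bag3. None of these passed. No member separated all 10 Xpc-/- from all 10 Wt mice (background 0.0118%). In control mice 0 members passed (background 0%), with 4 at an unadjusted p below 0.05 (5.19%, background 4.56%), and 0 were without overlap (background 0.701%). In exposed mice 0 passed (background 0.00589%), with 5 at an unadjusted p below 0.05 (6.49%, background 4.23%). In exposed mice Dnajc12, a J protein that binds aromatic amino acid hydroxylases, was the 1 member without overlap between genotypes (1.30%, background 0.743%). Its values were 7.58, 7.69, 7.63, 7.65 and 7.83 in Wt and 7.07, 7.54, 7.46, 7.52 and 7.54 in Xpc-/- mice, a small gap between the lowest Wt and the highest Xpc-/- mouse, and its difference of -0.25 did not pass (adjusted p = 0.987). It was chosen after its values were seen.

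Xpc-/- control 1 and 2 bore on many chaperone genes. Both lay outside the range of Xpc-/- control 3 to 5 for 49 of the 77 members (63.6%, background 49.9%), above it for 15 and below it for 34. The largest difference was in Hspa4, an HSP110 protein of the cytosol. Xpc-/- controls 1 and 2 measured 12.58 and 12.71 for Hspa4, compared with 11.64, 11.42 and 11.42 in the other 3. Wt controls measured 11.62, 11.46, 11.48, 11.85 and 11.77, Wt B[a]P mice 12.26, 11.76, 11.85, 11.97 and 12.0, and Xpc-/- B[a]P mice 12.11, 12.17, 11.76, 12.18 and 12.31. These 2 controls thus exceeded all 10 exposed mice, whereas the other 8 controls lay at 11.85 or below. Hspa5 (0.74) and Hspe1 (0.71) were also higher in these 2 mice than in the other 3, and Hsp90b1 (-0.89), Dnajc15 (-0.86) and Dnajb4 (-0.85) were lower, as differences of log2 means. The cause of their separation was not tested.

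**Figure D4:**
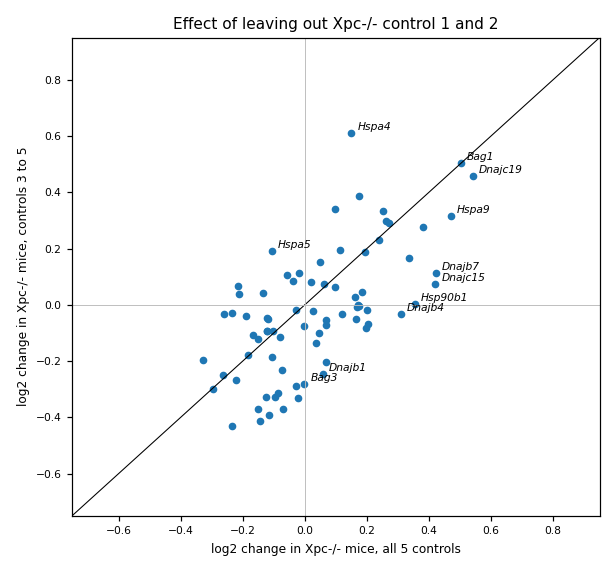
Log2 change between exposed and control Xpc-/- mice for the 77 members, with all 5 controls (x axis) and with Xpc-/- control 3 to 5 (y axis), where the line marks equal values. Hspa4 moves from 0.15 to 0.61, Hsp90b1 from 0.36 to 0.00, and Bag1 stays at 0.50.

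Without these 2 arrays 18 members passed the B[a]P main effect (23.4%, background 12.7%). Of these, 7 rose (9.09%, background 6.17%) and 11 fell (14.3%, background 6.48%), and all 7 of the members named first were among them. With array weights 18 members passed as well (23.4%, background 13.8%). Hspa4 rose by 0.47 (adjusted p = 4.02e-04) without the 2 arrays, compared with 0.24 (adjusted p = 0.334) with all arrays. The other 2 Hspa4 probes, which are dimmer, gave changes of -0.29 and -0.08 with all arrays, so that the probes of this gene disagreed. Without the 2 arrays, the stress-inducible genes Bag3 and Dnajb1 fell by 0.31 (adjusted p = 0.0163) and 0.26 (adjusted p = 0.0431), and the radial spoke gene Dnajb13 fell by 0.31 (adjusted p = 0.0234). Hspb1, also stress-inducible, had a change of 0.23 and did not pass (adjusted p = 0.0733). With array weights Bag3 and Dnajb1 did not pass (adjusted p = 0.0616 and 0.0684). Hspb1 then rose by 0.23 (adjusted p = 0.0381), and Hsph1 fell by 0.22 (adjusted p = 0.0486). Hsph1 did not pass without the 2 arrays (-0.20, adjusted p = 0.129), and its change in Xpc-/- mice was then -0.03. Without these 2 arrays, the endoplasmic reticulum members Dnajc18 (-0.42, adjusted p = 0.00223), Dnajc1 (-0.34, adjusted p = 0.0203) and Dnajc10 (0.25, adjusted p = 0.0318) passed too. So did Dnajb2 (0.28, adjusted p = 0.0137), Dnajc21 (-0.29, adjusted p = 0.0465) and the mitochondrial members Dnajc28 (-0.29, adjusted p = 0.0185) and Dnajc30 (-0.27, adjusted p = 0.0381). All but Dnajc21 and Dnajc30 also passed with array weights. The germ cell gene Dnajb3 passed with array weights only (-0.23, adjusted p = 0.0475), and its change without the 2 arrays was -0.22 (adjusted p = 0.0866). In Xpc-/- mice alone, 2 members passed without these arrays (2.60%, background 2.95%), Bag1 (0.50, adjusted p = 0.0211) and Hspa4 (0.61, adjusted p = 0.0148). With all arrays, the probes of Dnajc8, a J protein of the spliceosome, also disagreed. They gave 0.18 for the brighter and -0.22 for the dimmer probe, and neither passed. The Dnajc21 probes gave -0.19 and -0.09 with all arrays. On its brighter probe Xpc-/- control 1 and 2 measured 12.11 and 11.99, below 12.46 to 12.70 in the other Xpc-/- controls. On its dimmer probe they measured 11.50 and 11.56, above 10.65 to 10.77. The call of Dnajc21 without these 2 arrays rests on the brighter probe alone.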

How the data were processed

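The authors measured spots with Imagene and normalized them by quantiles on the natural log scale, followed by a correction for the reference channel and averaging over repeated spots. The 20868 deposited probe values are natural log signal levels, not ratios, and all were used. They were rescaled from base e to base 2. A gene symbol was annotated for 18303 probes and missing for 2565, and 18134 were matched to current symbols by Entrez ID. The number of arrays limits the precision.

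The 4 group means were estimated for every probe in limma 3.58.1 (R 4.3.3). Contrasts were called at a Benjamini-Hochberg adjusted p under 0.05 over all probes. The fit was tested on simulated data. The ordinary two-way analysis of variance that the study used was an alternative, as were array weights, an intensity trend, filtering, renormalization, a replicate block and leaving out mice. Members named are those called in any contrast, the 10 largest B[a]P and 5 largest genotype differences, germ cell and stress-inducible members, and those the study lists. Members, gene lists and tests were chosen with earlier results of these data known. Promoter windows came from RefSeq (GRCm38.p6), and the files name no genome build.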

Additional observations from a re-analysis of the deposited data

Results flagged for a closer look

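In 24 named members, each of the 4 groups was checked for a mouse far from the other 4, and 6 of 96 groups held such a mouse, where chance gives about 4.8. Bag4 in Xpc-/- control 1 measured 9.56, above 8.92 to 9.02 in the others. Dnajc7 in Wt B[a]P 4 measured 11.54, above 11.09 to 11.18, and Bag3 in the same mouse 9.27, above 8.71 to 8.83. Wt control 4 was low in Dnajc15, at 13.72 against 14.25 to 14.39, and in Hspa1a, at 7.88 against 8.14 to 8.24. Hspb1 in Wt control 3 measured 11.71, above 11.31 to 11.42.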

How the results depend on the processing

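Bag1, Hspa9, Dnajc19, Dnajc5g, Dnajc2 and Dnajc7 passed the B[a]P main effect under all 30 alternatives, and Bag4 under 29, with the exception of leaving out Wt control 4. The 7 members called became 18 with array weights and 18 without Xpc-/- control 1 and 2, settings under which the share of all named genes called also went from 6.36% to 13.8% and 12.7%, and 6 to 11 when each mouse was left out in turn, with 11 without Xpc-/- control 3. The 2 members called in Wt mice became 1 with the ordinary analysis of variance or an intensity trend with a robust prior, 6 with array weights (3.76% of all genes) and 5 without Xpc-/- control 1 and 2 (2.42% of all genes), and 1 to 3 when each mouse was left out. The 2 called in Xpc-/- mice became 1 with the ordinary analysis of variance, the intensity trend or renewed quantile normalization, 3 with array weights (3.22% of all genes), and 0 to 3 when each mouse was left out, with 0 without Xpc-/- control 5 or Xpc-/- B[a]P 4. Genotype and interaction calls were 0 throughout. The change of Hspa4 ranged from -0.04 with its 3 probes averaged to 0.47, and Hsph1 and Dnajb7 passed under 7 alternatives each. Neither Hsph1 nor Dnajb7 passed without Xpc-/- control 1 and 2 (adjusted p = 0.129 and 0.157). Replicate numbers did not pair the mice (30 pairs of same-numbered mice, r from -0.23 to 0.32), and with a replicate block the B[a]P main effect called 9 members. The cause of these differences was not tested.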
